A study of Mus musculus with 3 samples.

Results

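The Clec genes are a family of C-type lectin and lectin-like genes, and they were examined here in mouse plasmacytoid dendritic cells, which are specialised in secreting type I interferon. Members were taken by name: every gene on the array whose symbol is Clec followed by a digit, with 1 such gene left out beforehand and not reported here. That gave 31 of 32 Clec genes, out of 19505 named genes in all, each with 1 probe set. Of the 31 members, 18 lay above the background level of the arrays, and none of these 18 differed by as much as 1.5-fold between any pair of arrays. Over all genes above background the share that did was 2.13% for astragaloside IV against control, 3.31% for oxymatrine against control and 2.58% between the treated arrays, so a count of 0 in 18 lies near that of genes in general.

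The cells formed 3 groups, with 1 array in each. The first was given the Astragalus saponin astragaloside IV for 12 h and the second the Sophora alkaloid oxymatrine for 12 h, both followed by CCL21 for 1 h. The third was the control. The labels do not say at which dose the compounds were used, or if CCL21 or a solvent was also given to control cells, so the compound and the CCL21 step cannot be told apart in a difference from control. All cells came from marrow of WT male BALB/c mice of 4 to 5 weeks, were cultured for 6 to 9 days with 100 ng/mL Flt3 ligand, matured with CpG oligodeoxynucleotides, which engage TLR9, and sorted by flow cytometry. The study concerned how the compounds hold back migration. The labels do not give the number of mice behind an array, and with no replicates there is no test, p-value or standard error.

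C-type lectin receptors bind sugars, lipids or proteins through a shared fold and signal in opposing ways. Activating members pair with the adaptors FcRγ (gene Fcer1g) or DAP12 (gene Tyrobp), or carry their own activating motif, and act through the kinase Syk and the CARD9 complex. Inhibitory members carry a motif that recruits the phosphatases encoded by Ptpn6, Ptpn11 and Inpp5d. A further branch, the Clr proteins encoded by Clec2 genes such as Clec2d and Clec2i, are not sugar receptors but surface ligands for NKR-P1 receptors of natural killer cells. Dendritic cells and macrophages use the family to sense microbes and dying cells. Plasmacytoid cells are known for inhibitory members that temper toll-like receptor responses.

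The values are log2 RMA levels, 1 per probe set. Background was set at a log2 level of 5.28, which 95% of 1412 olfactory and vomeronasal receptor genes, normally silent in blood cells, did not exceed. A member counted as above background when its mean over the 3 arrays reached that level. The share of members above it, 58.1%, was near the 54.7% of all 19505 named genes. Members above background reached it in all 3 arrays, and members below it in none. Nearest to the threshold were Clec2l, Clec10a and Clec1b on the upper side, with means of 5.57, 5.92 and 6.27, and Clec4b2, Clec2m and Clec11a on the lower side, with means of 4.89, 4.59 and 4.50. Probe sets differ in how strongly they bind, so a level is compared here with the background and between arrays, not with the level of another gene.

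The cells carried the transcripts of their labelled lineage. All 11 measured plasmacytoid dendritic cell markers were above background, among them Siglech, at 8.99 with astragaloside IV, 9.02 with oxymatrine and 8.99 in control. So were all 10 measured monocyte and macrophage markers, with mean levels of 12.02, 12.03 and 12.10 in the same order of arrays, and so were 5 of 6 markers of type 1 and 5 of 7 of type 2 conventional dendritic cells. Of the other lists, 3 of 4 megakaryocyte and platelet, 3 of 11 neutrophil, 2 of 7 NK cell, 2 of 4 B cell and 2 of 6 endothelial markers were above background. The plasmacytoid list averaged 11.21 with astragaloside IV and 11.18 with oxymatrine, against 11.31 in control. With astragaloside IV, 6 of its 11 markers were lower, 0 higher and 5 equal, where 40.8% of all genes above background were lower. With oxymatrine, 8 were lower, 2 higher and 1 equal, where 46% of all genes were lower. The type 1 list averaged 6.92 with astragaloside IV and 6.87 with oxymatrine, against 7.17 in control. Its 5 markers above background had medians of -0.26 and -0.38 relative to control, where that of all genes was 0 in both comparisons. Many Clec genes are also known from monocytes and macrophages and some from conventional dendritic cells, and the part of such cells in the levels of Clec genes was not tested. In bulk RNA, fewer cells of a type and less RNA per cell cannot be told apart.

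**Figure D1:**
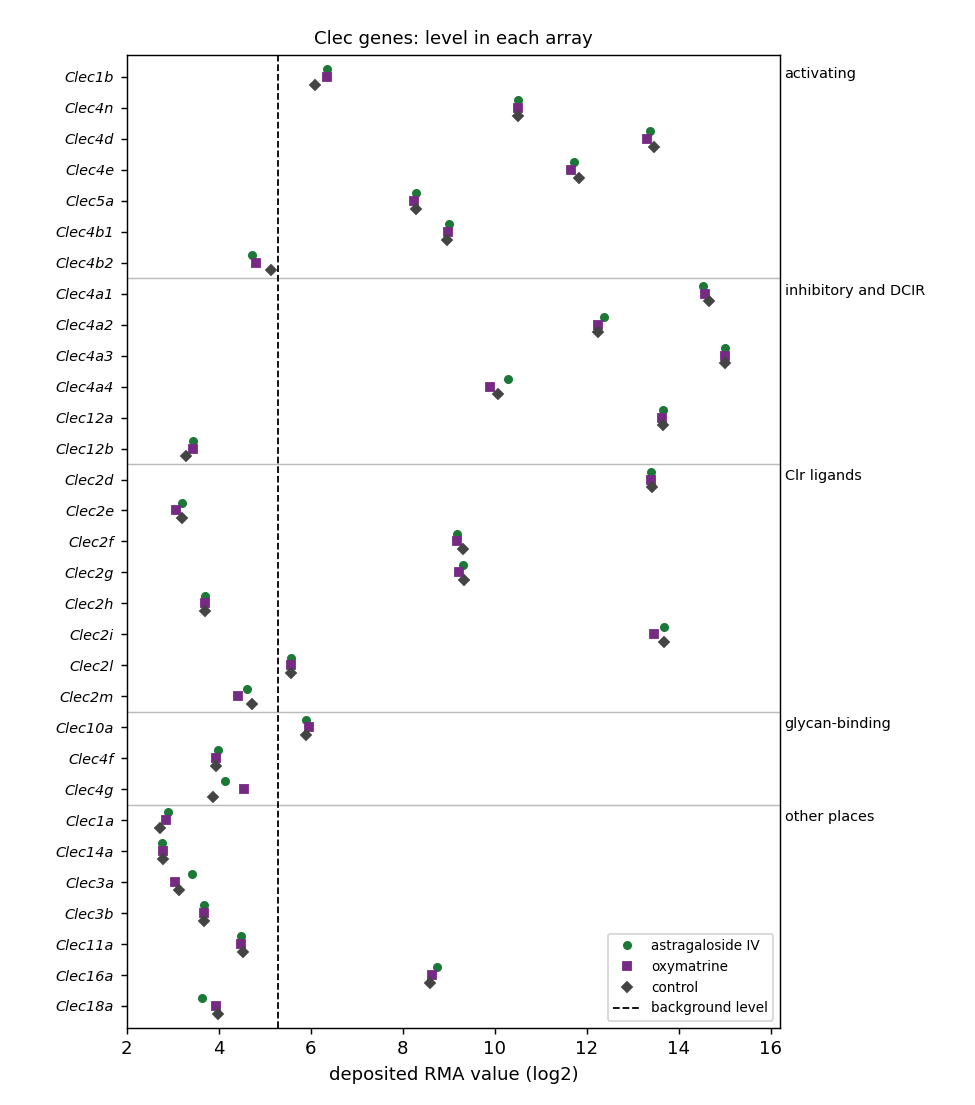
Log2 RMA level (horizontal axis) of the 31 Clec genes in the astragaloside IV, oxymatrine and control arrays, 1 point per array, grouped by role, with the background level of 5.28 as a dashed line. Clec2l is set with the other Clec2 genes by its name. The 18 genes above the line have all 3 points above it, the 13 others have all 3 below it, and levels of different genes are not comparable.

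Among the activating receptors, 6 of 7 were above background. Clec4e encodes Mincle, which binds mycobacterial cord factor and signals through FcRγ, and it was at 11.72 with astragaloside IV and 11.67 with oxymatrine, against 11.83 in control. Its partner MCL is encoded by Clec4d, which was at 13.38 with astragaloside IV and 13.31 with oxymatrine, against 13.46 in control. Both genes were lower in both treated arrays. The log2 difference from control was -0.11 for Clec4e and -0.09 for Clec4d with astragaloside IV, and -0.16 and -0.15 with oxymatrine, in size 0.81 to 1.21 times the SD that genes of like level showed for that difference. That SD, taken in 20 bins of equal size over the 10671 genes above background, describes how far apart genes of a given level lay and is not a replicate error. Clec4n, which encodes the mannan receptor Dectin-2, had the same value of 10.50 in each array.

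Clec5a encodes MDL-1, a DAP12-coupled receptor of myeloid cells, and was at 8.28 with astragaloside IV and 8.24 with oxymatrine, against 8.28 in control. Clec4b1, for the FcRγ-coupled receptor DCAR, was at 9.00 with astragaloside IV and 8.98 with oxymatrine, against 8.95 in control. For both genes the arrays lay within 0.05 of one another. The related Clec4b2 stayed below background, at 4.73 and 4.80 in the astragaloside IV and oxymatrine arrays, against 5.14 in control.

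Clec1b encodes CLEC-2, the podoplanin receptor best known from platelets. It was at 6.36 with astragaloside IV and 6.36 with oxymatrine, against 6.09 in control. Its difference of 0.26 was the highest of the 18 members in both comparisons with control, which share the control array, at 1.04 and 0.95 times the SD of genes of like level. The gene of its ligand, Pdpn, was also higher in both treated arrays, at 8.70 with either compound, against 8.46 in control. Of 4 measured megakaryocyte and platelet markers, 3 were above background. One of them, the integrin gene Itga2b, was at 7.40 with astragaloside IV and 7.43 with oxymatrine, against 6.99 in control, whereas the platelet factor gene Pf4 was at 8.54 with either compound, against 8.61 in control. The mean level of the 4 markers was 6.49 with astragaloside IV and 6.53 with oxymatrine, against 6.44 in control, and the part of such cells in the Clec1b values was not tested.

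The inhibitory receptors and their close relatives of the DCIR group were above background in 5 of 6 cases, the other being Clec12b, at 3.29 to 3.45. Clec4a2 encodes DCIR, the inhibitory receptor that gives the group its name, and was at 12.37 with astragaloside IV and 12.24 with oxymatrine, against 12.24 in control. Clec4a1 was at 14.53 with astragaloside IV and 14.57 with oxymatrine, against 14.65 in control. Clec4a1 was the only one of the 5 that was lower with astragaloside IV, by a difference of -0.12, in size 1.48 times the SD of genes of like level. Clec4a3 had the same value of 14.99 in each array. Clec12a encodes a receptor for uric acid crystals that restrains inflammation, and it was at 13.65 with astragaloside IV, 13.63 with oxymatrine and 13.65 in control.

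Clec4a4 encodes DCIR2, the receptor that marks a subset of type 2 conventional dendritic cells. It was at 10.29 with astragaloside IV and 9.90 with oxymatrine, against 10.06 in control. The treated arrays lay on opposite sides of control, by 0.22 and -0.16, which gave the largest gap between 2 arrays of any of the 18 members, 0.38 for astragaloside IV minus oxymatrine. That gap was 2.19 times the SD of genes of like level. Of 7 measured markers of type 2 conventional dendritic cells, 5 were above background. Their median was -0.16 for astragaloside IV minus oxymatrine, 0 for astragaloside IV minus control and 0.08 for oxymatrine minus control. The median of all genes above background was 0 in each comparison. The whole list averaged 8.81 with astragaloside IV and 8.91 with oxymatrine, against 8.79 in control. For astragaloside IV minus oxymatrine the 5 ran from -0.28 for Itgax to 0.01 for Cd4. Of these, 3 were lower, 1 higher and 1 equal, where 32.5% of all genes were lower, 40.7% higher and 26.7% exactly equal. The part of such cells in the Clec4a4 values was not tested.

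Of the 8 Clec2 genes, 5 were above background. Clec2d encodes Clr-b, the ligand of the inhibitory receptor NKR-P1B, and was at 13.39 with astragaloside IV and 13.39 with oxymatrine, against 13.42 in control. Clec2i encodes Clr-g, a ligand of NKR-P1F, and was at 13.67 with astragaloside IV and 13.45 with oxymatrine, against 13.67 in control. Only the oxymatrine array stood apart for Clec2i, by -0.22 from control, the lowest of the 18 members and in size 1.69 times the SD of genes of like level. Because the astragaloside IV and control values of Clec2i were equal, the same gap of 0.22 separated astragaloside IV from oxymatrine, and there it was 2.23 times that SD. Clec2f was at 9.18 with astragaloside IV and 9.17 with oxymatrine, against 9.32 in control, and its -0.13 was the lowest difference between astragaloside IV and control among the 18 members above background. Clec2g was at 9.30 with astragaloside IV and 9.23 with oxymatrine, against 9.33 in control, and Clec2l had the same value of 5.57 in each array. Clec2m stayed below background, at 4.62 with astragaloside IV and 4.42 with oxymatrine, against 4.73 in control.

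The receptors that Clr proteins engage belong to lymphoid cells. Klrb1f, the gene of NKR-P1F, was above background, at 7.73 with astragaloside IV and 7.74 with oxymatrine, against 7.78 in control. The other 4 measured Klrb1 genes were below background. Among them Klrb1b, the gene of NKR-P1B, was at 4.19 with astragaloside IV and 4.38 with oxymatrine, against 4.42 in control.

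Of the galactose and other glycan receptors, only Clec10a was above background. It encodes the macrophage galactose lectin and was at 5.90 with astragaloside IV and 5.96 with oxymatrine, against 5.90 in control. Its close relative Mgl2 was below background, at 3.33 in each array. Clec4f, a Kupffer cell receptor, and Clec4g, a receptor of liver sinusoidal endothelium, were below background as well. Clec4g was at 4.15 with astragaloside IV and 4.55 with oxymatrine, against 3.87 in control, and its 0.68 for oxymatrine minus control was the only difference of 1.5-fold or more among all 31 members in any comparison. All 3 of its values lay below background, so that size rests on signal not told from silent genes.

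The members made by endothelium, cartilage or bone, or found in plasma, were not above background. They are Clec1a and the endothelial gene Clec14a, Clec3a of cartilage, Clec3b, which encodes the plasma protein tetranectin, and Clec11a, a bone growth factor gene. Together with Clec18a they spanned 2.72 to 4.52 over the 3 arrays. Clec16a was above background, at 8.75 with astragaloside IV and 8.64 with oxymatrine, against 8.58 in control. Despite its name it encodes an intracellular regulator of autophagy and mitophagy and not a lectin receptor.

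All 31 members were found in the RefSeq gene table of GRCm38.p6, and 23 of them lie on chromosome 6. Of those 23, 16 were above background, as were 2 of the 8 on other chromosomes, Clec10a and Clec16a. Of all named genes 54.7% were, and the counts by position below stand beside that same share. A run of 9 neighbouring protein-coding genes from Clec4a1 to Clec4e consists of members alone, and 8 of the 9 were above background, with Clec4b2 as the exception. Farther along, from Clec2h to Clec1a, 6 of 11 members were above background. In that stretch Clec2h, Clec2e, Clec2m, Clec12b and Clec1a were below it, interspersed with Clec2i, Clec2g, Clec2f, Clec2d, Clec12a and Clec1b above it. Clec4a and Clec2 genes are close paralogs, and how far probes of one bind transcripts of another was not tested.

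**Figure D2:**
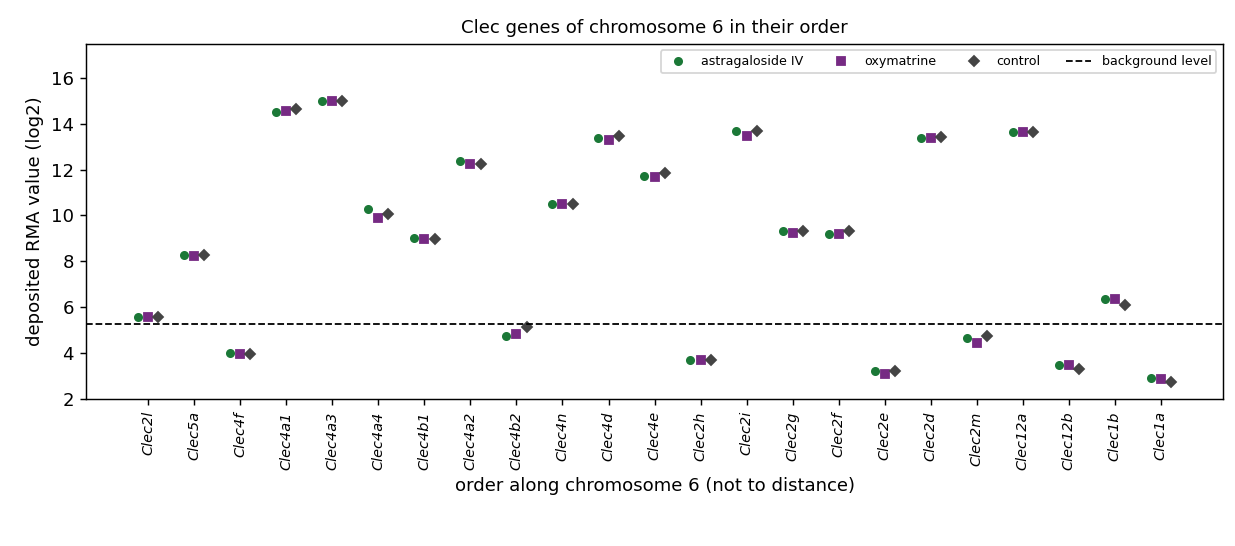
Log2 RMA level (vertical axis) in the astragaloside IV, oxymatrine and control arrays of the 23 Clec genes of chromosome 6, set side by side in their order along the chromosome and not to distance, with the background level of 5.28 as a dashed line. From Clec4a1 to Clec4e only Clec4b2 lies below it, and from Clec2h onward genes above and below it are interspersed.

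Promoter windows from RefSeq on GRCm38.p6, 250 bases before to 50 bases after a gene start, were matched to 24 members, 14 of them above background. Among the 276 pairs of these windows, the best local alignment joined Clec2e and Clec2h, both below background, with 230 of 251 aligned positions identical. Next came Clec4b1, above background, with Clec4b2, below it, at 137 of 186 positions, and Clec2d with Clec2g, both above it, at 49 of 54. These 6 windows are shown because they set promoters that resemble each other beside the presence or absence of signal, and capitals mark the aligned stretch of each pair, 5′ to 3′ on the gene's strand.
Clec2e, chr6:129100854-129101153, minus strand: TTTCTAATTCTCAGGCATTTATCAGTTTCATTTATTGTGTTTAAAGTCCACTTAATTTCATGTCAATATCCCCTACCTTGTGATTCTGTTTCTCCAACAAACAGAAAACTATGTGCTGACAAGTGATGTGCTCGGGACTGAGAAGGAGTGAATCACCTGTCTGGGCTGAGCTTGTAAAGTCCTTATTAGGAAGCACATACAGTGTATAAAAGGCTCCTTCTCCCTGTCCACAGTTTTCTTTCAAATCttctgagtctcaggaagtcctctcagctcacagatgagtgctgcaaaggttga
Clec2h, chr6:128662135-128662434, plus strand: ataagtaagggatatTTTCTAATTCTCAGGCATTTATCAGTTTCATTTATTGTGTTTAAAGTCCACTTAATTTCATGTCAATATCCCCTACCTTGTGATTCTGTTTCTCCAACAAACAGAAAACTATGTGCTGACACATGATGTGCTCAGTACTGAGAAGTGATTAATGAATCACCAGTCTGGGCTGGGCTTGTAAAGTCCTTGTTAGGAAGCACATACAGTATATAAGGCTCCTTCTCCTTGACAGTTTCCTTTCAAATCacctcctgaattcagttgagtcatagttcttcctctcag
Clec4b1, chr6:123049712-123050011, plus strand: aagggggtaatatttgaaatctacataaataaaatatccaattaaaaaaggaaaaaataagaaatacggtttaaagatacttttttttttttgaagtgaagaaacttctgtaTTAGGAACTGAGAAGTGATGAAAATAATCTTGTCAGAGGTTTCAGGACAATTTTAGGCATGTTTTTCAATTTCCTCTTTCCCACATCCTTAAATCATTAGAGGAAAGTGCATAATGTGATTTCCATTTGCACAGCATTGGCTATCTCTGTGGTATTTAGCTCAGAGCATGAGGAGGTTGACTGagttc
Clec4b2, chr6:123172773-123173072, plus strand: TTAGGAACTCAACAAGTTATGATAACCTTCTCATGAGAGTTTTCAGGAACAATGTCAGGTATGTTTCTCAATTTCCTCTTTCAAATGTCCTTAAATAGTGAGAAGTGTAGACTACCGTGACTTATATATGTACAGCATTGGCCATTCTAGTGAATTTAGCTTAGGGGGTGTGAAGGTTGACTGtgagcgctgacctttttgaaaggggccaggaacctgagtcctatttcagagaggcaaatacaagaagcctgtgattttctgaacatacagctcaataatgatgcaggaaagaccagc
Clec2d, chr6:129180365-129180664, plus strand: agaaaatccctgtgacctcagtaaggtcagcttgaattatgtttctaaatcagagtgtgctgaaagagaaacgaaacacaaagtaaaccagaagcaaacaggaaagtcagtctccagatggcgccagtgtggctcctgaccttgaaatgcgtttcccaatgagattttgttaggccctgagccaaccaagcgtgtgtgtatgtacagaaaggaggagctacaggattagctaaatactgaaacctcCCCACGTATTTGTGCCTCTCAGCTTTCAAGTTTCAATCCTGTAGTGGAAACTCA
Clec2g, chr6:128934131-128934430, plus strand: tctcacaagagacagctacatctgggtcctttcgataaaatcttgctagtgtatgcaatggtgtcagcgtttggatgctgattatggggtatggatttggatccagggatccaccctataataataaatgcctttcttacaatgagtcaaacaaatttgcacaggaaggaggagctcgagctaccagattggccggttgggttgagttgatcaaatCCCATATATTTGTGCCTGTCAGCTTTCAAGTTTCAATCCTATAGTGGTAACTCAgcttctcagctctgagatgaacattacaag

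The Clec2e and Clec2h windows align over most of their length. Clec2e was at 3.20 with astragaloside IV, 3.06 with oxymatrine and 3.20 in control, and Clec2h at 3.70 in each array. In the Clec4b pair, where the genes lay on opposite sides of the background level, the aligned stretch runs to base 295 of the 300 in the Clec4b1 window but to base 183 in the Clec4b2 window. In the Clec2d and Clec2g pair it covers 54 bases, from 247 to 300 in the Clec2d window and from 217 to 270 in the Clec2g window. In Clec2d the stretch thus lies mostly after the annotated start. The core of the interferon-stimulated response element, searched on both strands as GAAA, any 2 bases and GAAA again, was found in the windows of Clec2d, Clec4b1 and Clec4d, 3 of 24 members, and in 3.49% of all 27025 windows. The PU.1 core GAGGAAG, on both strands, was found in 7 of the 24, 5 of them above background, and in 13.5% of all windows. The AP-1 core TGANTCA, on both strands, was found in 6, 3 of them above background, and in 7.93% of all windows. Among these are both Clec2e and Clec2h, which share TGAATCA inside their aligned stretch, so that shared match is not a separate case in each. Clec2h also has TGAGTCA after the aligned stretch, which Clec2e lacks. A match describes letters and does not show binding.

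**Figure D3:**
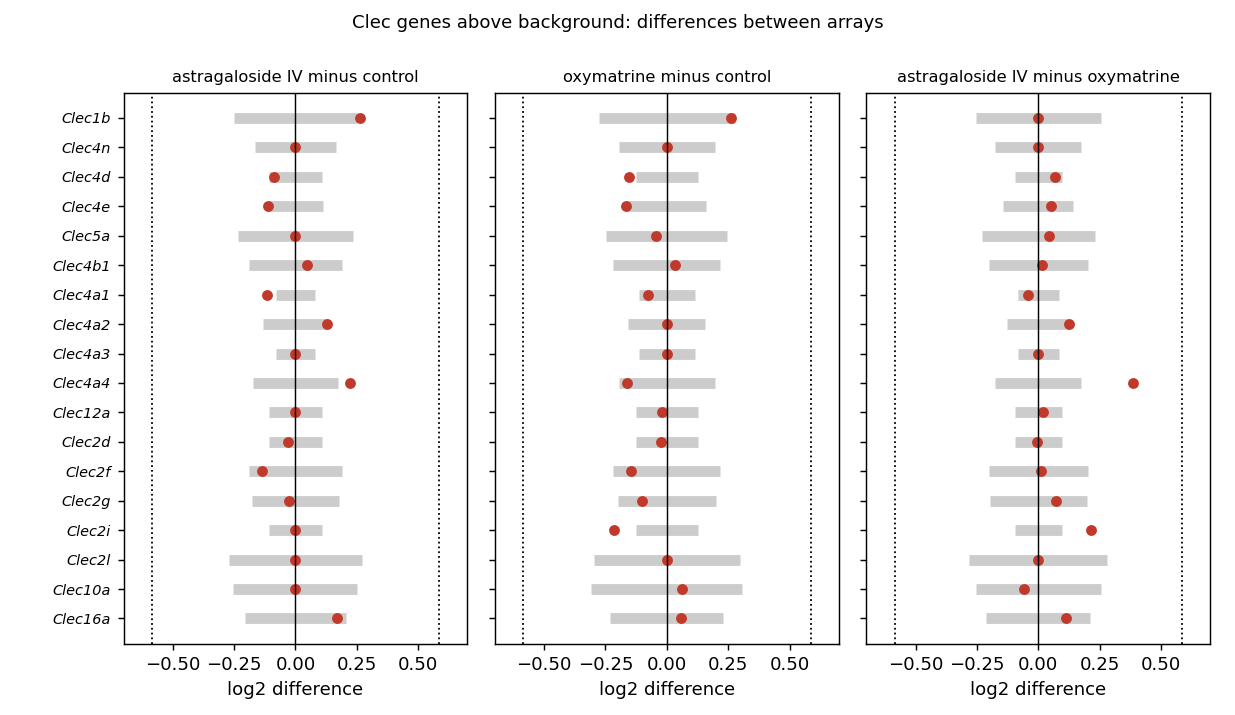
Log2 difference (horizontal axis) of the 18 Clec genes above background, for astragaloside IV minus control, oxymatrine minus control and astragaloside IV minus oxymatrine, with points for single differences of 2 arrays, grey bars for 1 SD of that difference over genes of like level to each side of 0, and dotted lines at 1.5-fold. No point reaches a dotted line, and Clec4a4 and Clec2i lie farthest outside the grey bars in the comparison of the treated arrays.

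With astragaloside IV, 0 of the 18 members above background were 2-fold apart from control and 0 were 1.5-fold apart, where 0.197% and 2.13% of all 10671 genes above background were. By any amount, 7 were lower, 5 higher and 6 equal, where 40.8% of all genes were lower, 31.4% higher and 27.7% exactly equal. After centring on array medians, or after quantile normalisation, 6 were lower and 12 higher. In those counts the equal values had moved off 0, and Clec5a, and under quantile normalisation also Clec2g, had changed sign. All genes moved as well. The median was 0.004 for the members and for all genes after centring, and 0.01 and 0.02 after quantile normalisation. As deposited, the median difference was 0 for the members and 0 for all genes, and the members spanned -0.13 to 0.26. In size, 3 members reached 1 SD of genes of like level, namely Clec4a1, Clec4a4 and Clec1b, where 25% of all genes did, and 0 reached 2 SD, where 6.97% did.

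With oxymatrine, again 0 of the 18 were 2-fold apart from control and 0 were 1.5-fold apart, where 0.281% and 3.31% of all genes were. By any amount, 10 were lower, 4 higher and 4 equal, where 46% of all genes were lower, 29.7% higher and 24.4% exactly equal. The surplus of lower values does not hold under quantile normalisation, which gave 8 lower and 10 higher, while centring on array medians gave 14 lower and 4 higher. Both rescalings also moved genes in general. The median was 0.01 for the members and 0.03 for all genes after quantile normalisation, and -0.05 and -0.03 after centring. As deposited, the median was -0.02 for the members and 0 for all genes, and the members spanned -0.22 to 0.26. At 1 SD or more were Clec2i, Clec4d and Clec4e, 3 of 18, where 26.4% of all genes were, and 0 were at 2 SD or more, where 7.22% were.

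Between the treated arrays, 0 of the 18 were 2-fold and 0 were 1.5-fold apart, where 0.159% and 2.58% of all genes were. For astragaloside IV minus oxymatrine, 11 were higher, 3 lower and 4 equal, where 40.7% of all genes were higher, 32.5% lower and 26.7% exactly equal. Centring on array medians gave 16 higher and 2 lower, and quantile normalisation 10 higher and 8 lower. These rescalings moved all genes as well. After centring the median was 0.05 for the members and 0.03 for all genes, and after quantile normalisation 0.01 and -0.01. As deposited, the median was 0.02 for the members and 0 for all genes, and the members spanned -0.06 at Clec10a to 0.38 at Clec4a4. At 1 SD or more were 3 of 18 members, where 24.8% of all genes were, and Clec2i and Clec4a4 were the 2 at 2 SD or more, where 6.9% were.

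Over the 3 arrays, the gap between the highest and the lowest value of a member above background had a median of 0.11 and a maximum of 0.38, while the median over all 10671 genes was 0.14. Clec4a3, Clec4n and Clec2l had the same value in all 3 arrays, as did 13.6% of all genes above background. RMA summarises probes by median polish, which can return identical values for arrays that are not exactly alike. Lower in both treated arrays than in the shared control were Clec4a1, Clec4d, Clec4e, Clec5a, Clec2d, Clec2f and Clec2g, 7 of 18, where 30.1% of all genes were. Of these, Clec5a and Clec2g changed sign with astragaloside IV, and Clec5a and Clec2d with oxymatrine, under at least 1 rescaling. Higher in both were Clec1b, Clec4b1 and Clec16a, where 17.8% of all genes were, and these 3 kept their sign after centring, quantile normalisation and lowess.

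The machinery downstream of the activating members was present. All 15 measured genes of Syk and CARD9 signalling and its adaptors were above background, among them Fcer1g, at 16.86 with astragaloside IV and 16.95 with oxymatrine, against 17.02 in control. Tyrobp was at 13.48 with astragaloside IV and 13.56 with oxymatrine, against 13.56 in control, and Syk at 13.35, 13.26 and 13.35 in the same order. With astragaloside IV, 12 of the 15 were lower, 0 higher and 3 equal, where 40.8% of all genes were lower, 31.4% higher and 27.7% equal, and the median was -0.07. After quantile normalisation 10 were lower, 5 were higher and the median was -0.06, where that of all genes was 0.02. With oxymatrine, 8 were lower, 4 higher and 3 equal, where 46% of all genes were lower and 29.7% higher, and the median was -0.06. Quantile normalisation turned that to 7 lower and 8 higher, with a median of 0.005 where that of all genes was 0.03. Centring on array medians gave 11 lower and 4 higher, with a median of -0.09 where that of all genes was -0.03. Lowess gave 8 lower and 7 higher. None of the 15 was 1.5-fold from control in either comparison, where 2.13% of all genes were with astragaloside IV and 3.31% with oxymatrine. Between the treated arrays 2 of the 15 were 1.5-fold apart, where 2.58% of all genes were. One was Malt1, the paracaspase of the CARD9 complex, at 9.38 with astragaloside IV and 9.97 with oxymatrine, against 9.41 in control. The other was Lat2, a membrane adaptor, at 8.68 with astragaloside IV and 9.26 with oxymatrine, against 9.01 in control.

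The 3 phosphatase genes behind the inhibitory members were all above background and had equal values with astragaloside IV and in control. With oxymatrine, Ptpn11 differed from control by -0.25, Inpp5d by -0.06 and Ptpn6 by 0.02. Of 39 measured C-type lectin domain genes with other names, 18 were above background, where 54.7% of all named genes were. In each of the 3 comparisons 0 of these 18 were 1.5-fold apart. Of all genes above background 2.13%, 3.31% and 2.58% were, so that count lies near genes in general. The 18 include Ly75, which encodes the endocytic receptor DEC-205, with the same value of 13.93 in each array. Cd72, an inhibitory coreceptor of B cells, is another, at 16.34 with astragaloside IV and 16.24 with oxymatrine, against 16.40 in control. Cd209a, a dendritic cell gene of the DC-SIGN group, was below background at 3.58, 3.60 and 3.24 in the same order. Of the 18 such genes above background, 9 were lower and 5 higher for astragaloside IV minus control, where 40.8% of all genes were lower and 31.4% higher, and quantile normalisation gave 8 lower and 10 higher. For oxymatrine minus control 5 were lower and 8 higher, where 46% of all genes were lower and 29.7% higher. Centring on array medians gave 11 lower and 7 higher, and quantile normalisation 8 lower and 10 higher. For astragaloside IV minus control, centring gave 9 lower and 9 higher. After centring, the median of all genes was 0.004 with astragaloside IV and -0.03 with oxymatrine. After quantile normalisation it was 0.02 and 0.03.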

How the data were processed

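Per the labels' protocols, a whole-transcript kit turned total RNA into biotin-labelled cRNA, with 1 array per sample. The authors deposited log2 expression values, made with RMA per the submitters' processing notes. For the software and the array's genome build, nothing is given in the sources used here. The range of the values set the base of the log. Probe sets were named through the platform annotation, and for the 55 of 19505 genes with several, the set with the highest mean was used. Each comparison is a difference of 2 deposited log2 values. Genes were counted by size, at 2-fold and at 1.5-fold, with no test. The SD beside a difference came from 20 bins of level. Precision is limited by the number of arrays, which have no read depth. Every member is named, with values in each array for those above background. The members and lists were chosen with earlier results of these data known. Alternatives covered the level filter, thresholds, centring, quantile normalisation, lowess (fraction 0.3) and probe set averaging. The difference and the 2-fold count were tested on simulated data with known shifts, for astragaloside IV minus control only. Quantile normalisation was checked for giving like distributions, and the other calculations were not tested this way. Promoter windows were aligned locally in Biopython 1.88 (match 1, mismatch -1, gap -3 to open and -1 to extend). Python 3.11.15, numpy 2.4.6, pandas 2.3.3 and statsmodels 0.14.6 were used.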

Additional observations from a re-analysis of the deposited data

How the results depend on the processing

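No paired analysis was possible because each group has 1 array. The number of Clec genes above background was 17 with the 99th percentile of receptor genes and 18 under the other 4 definitions tried. Probe set averaging could not alter member levels, since each member has 1 probe set. Asking for every array or for any array gave the same count because members reached background in all 3 arrays or in none. The counts at 2-fold and at 1.5-fold were 0 under all alternatives for the 3 comparisons, except 1 gene, Clec4g, at 1.5-fold for oxymatrine minus control with no level filter. The single differences of the 18 members moved by at most 0.07 under centring, quantile normalisation and lowess. Counts by sign alone moved more. Rescaling moved the exactly equal values off 0 and changed the sign of up to 3 of the 18 members in a comparison, the largest of them 0.04 in size as reported. It also moved the median of all genes above background off 0. With no level filter, which adds the 13 members below background, 12 were lower and 10 higher for astragaloside IV minus control, 16 lower and 7 higher for oxymatrine minus control, and 7 lower for astragaloside IV minus oxymatrine. The higher counts for astragaloside IV minus control were 12 after centring, 12 after quantile normalisation and 10 after lowess. Those for oxymatrine minus control were 10 after quantile normalisation and 9 after lowess, and the lower counts for astragaloside IV minus oxymatrine were 8 and 7. The median for oxymatrine minus control ran from -0.05 after centring to 0.01 after quantile normalisation. That of all genes above background was -0.03 and 0.03 under the same 2 settings. Rescaling of the Syk and CARD9 list and of the other C-type lectin domain genes was added after seeing the data. With 1 array a group, no difference reported has a replicate check.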
